A study of Mus musculus with 5 samples.

Results

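The genes described here build and run the presynaptic terminal, where neurotransmitter is released. They were taken as 58 named genes for active zone scaffolds, vesicle docking and priming, SNARE-driven fusion, calcium sensing, vesicle membrane proteins and endocytosis, out of 53700 gene rows in the table, and each of the 58 had counts. The RNA came from the midbrains of C57BL/6 mice, several animals pooled for each library, and was isolated by BAC-TRAP, in which an EGFP-tagged L10a (a ribosomal protein) is made only after Cre recombination and is captured by an antibody along with the mRNAs on its ribosomes. Both groups carried the L10a transgene and received AAV:THCre, an adeno-associated virus with Cre under a tyrosine hydroxylase promoter. The genotypes were L10a;Esrrg WT (3 libraries, replicates 2, 3 and 4) and L10a;Esrrg Flox (2 libraries, replicates 2 and 4), where Cre deletes exon 2 of Esrrg, which encodes the nuclear receptor ERRγ (estrogen-related receptor gamma), an activator of transcription. Mice were 4 months old, and 1 month had passed since the virus was given. The tag and the deletion are thus both directed to cells where this virus drives Cre, and the WT mice had no floxed allele.

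A synaptic vesicle is tethered at the active zone by the scaffold proteins RIM, RIM-BP, Piccolo, Bassoon and ELKS, primed by Munc13 and CAPS, and fused when synaptotagmin binds calcium and the SNARE proteins on vesicle and plasma membrane zipper together. Complexin holds the assembled SNARE complex ready, and NSF with its SNAP adaptors takes it apart afterwards. The membrane is then retrieved with clathrin, the AP-2 adaptor, amphiphysin, endophilin and dynamin. DAergic neurons of the midbrain make these proteins in the cell body for a very large number of release sites in the striatum, and they also release transmitter from their dendrites.

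The libraries held 20635855 to 23105058 counts assigned to genes. Esrrg had 1763, 1643 and 1726 normalized counts in WT and 1504 and 1170.1 in Flox, a log2 fold change of -0.35 (SE 0.13, DESeq2 adjusted p = 0.0753). Exons outside the deleted one still count toward the gene, so this total does not measure the deletion. Dopaminergic markers were present and their summed level overlapped between groups (53196 to 62806 normalized counts in WT and 53893 to 56658 in Flox, 11 genes). Of these 11, 9 had a log2 fold change below 0 (median -0.15) and the receptor gene Ret was called lower (-0.40, DESeq2 adjusted p = 0.00291). Th, the rate-limiting enzyme of dopamine synthesis, was at 10889.5, 9849 and 12813 in WT and 10224 and 10945 in Flox. Markers of other cells were also present: 12 microglial genes summed to 1545 to 2931 normalized counts in WT and 5212 to 11162 in Flox, with 10 of 12 called higher and the top value in Flox replicate 4. Endothelial genes (8) summed to 128 to 288 normalized counts in WT and 299.7 to 770.4 in Flox, with 3 called higher. Oligodendrocyte (110260 to 163130 normalized counts in WT and 125770 to 149820 in Flox) and astrocyte genes (74828 to 109200 normalized counts in WT and 78872 to 102550 in Flox) overlapped between groups. The 6 GABAergic genes summed to 38937 to 39634 normalized counts in WT and 36238 to 37858 in Flox, so that both Flox libraries were below the WT libraries, with Gad2 called lower (-0.35, DESeq2 adjusted p = 0.0302) and Sst called higher (0.54, DESeq2 adjusted p = 0.0157). The 3 glutamatergic genes summed to 4902 to 7365 normalized counts in WT and 4897 to 6183 in Flox. Within this sum Slc17a7 varied widely, at 2974, 2772 and 390 in WT and 2303 and 800 in Flox. Slc17a7 was thus lowest in replicate 4 of each group, whereas Slc17a6 was highest there. No gene of these lists was at 0 in all libraries. The part of these other cells in the results below was not tested.

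Levels are normalized counts (counts divided by a library's size factor), and a difference is the log2 fold change of Flox over WT fitted by DESeq2 on all genes at once, with a two-sided Wald test and a Benjamini-Hochberg adjusted p. A gene was called at an adjusted p under 0.05. The labels do not tie the libraries to separate cohorts, so p-values measure the spread between these pools, and a gene taken alone, with 3 libraries set against 2, cannot reach a one-sided exact permutation p below 0.1. In bulk RNA, fewer cells of a type and less RNA per cell cannot be told apart.

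Most presynaptic genes did not pass the test, and for nearly all of these the interval of the difference was narrow. Of the 58, 6 were lower (10.3%) and 1 higher (1.72%) in Flox, where 4.05% of all 15724 tested genes were lower and 4.20% higher (8.25% in either direction). Among the 7073 tested genes with a mean of at least 500 normalized counts, an abundance that most members reach, the shares were 6.76% and 5.99%. The genes that fell were Dnm1, Ap2a1, Syngr1, Rims4, Cplx1 and Rims1, and the gene that rose was Pclo. None of the 7 reached the 1.5-fold change that the study asked for (0 of 58 by DESeq2 with that threshold added, against 1.41% of all tested genes lower and 1.77% higher). The median log2 fold change of the 58 was -0.094, with 40 genes below 0 and 18 above it. The median of all tested genes was -0.0063, with 8011 of 15724 below 0. Among those with a mean of at least 500 it was -0.033, with 3927 of 7073 below 0. For 48 of the 51 genes that were not called, the 95% interval of the difference lay inside a 1.5-fold change in either direction. The 3 others, Unc13b, Cplx3 and Syn3, were the least abundant members. edgeR's quasi-likelihood test called 0 of the 58 (21 at an unadjusted p under 0.05), where it called 0.535% of all genes lower and 0.884% higher. At that unadjusted p edgeR had 3816 of all 16627 genes it tested. DESeq2 on all libraries had 14 members lower and 5 higher at an unadjusted p under 0.05, and 1661 and 1531 of all 15724 tested genes. Counts at an unadjusted p given below stand beside these, and no such background is given for fits that leave a library out. For the calls of those fits only a range over all genes is given, in the closing section. Their counts therefore cannot be set against a share of all genes in the same fit. DESeq2 called 0 of the 58 without Flox replicate 4 (6 lower and 0 higher at an unadjusted p under 0.05). It also called 0 when WT replicate 2 was left out (8 lower and 5 higher at that p). Without Flox replicate 2 it called 6 lower and 3 higher. Of the 7 genes, 5 still passed without WT replicate 3, 4 without WT replicate 4 and 6 without Flox replicate 2, and each kept its direction in all of these fits.

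**Figure D1:**
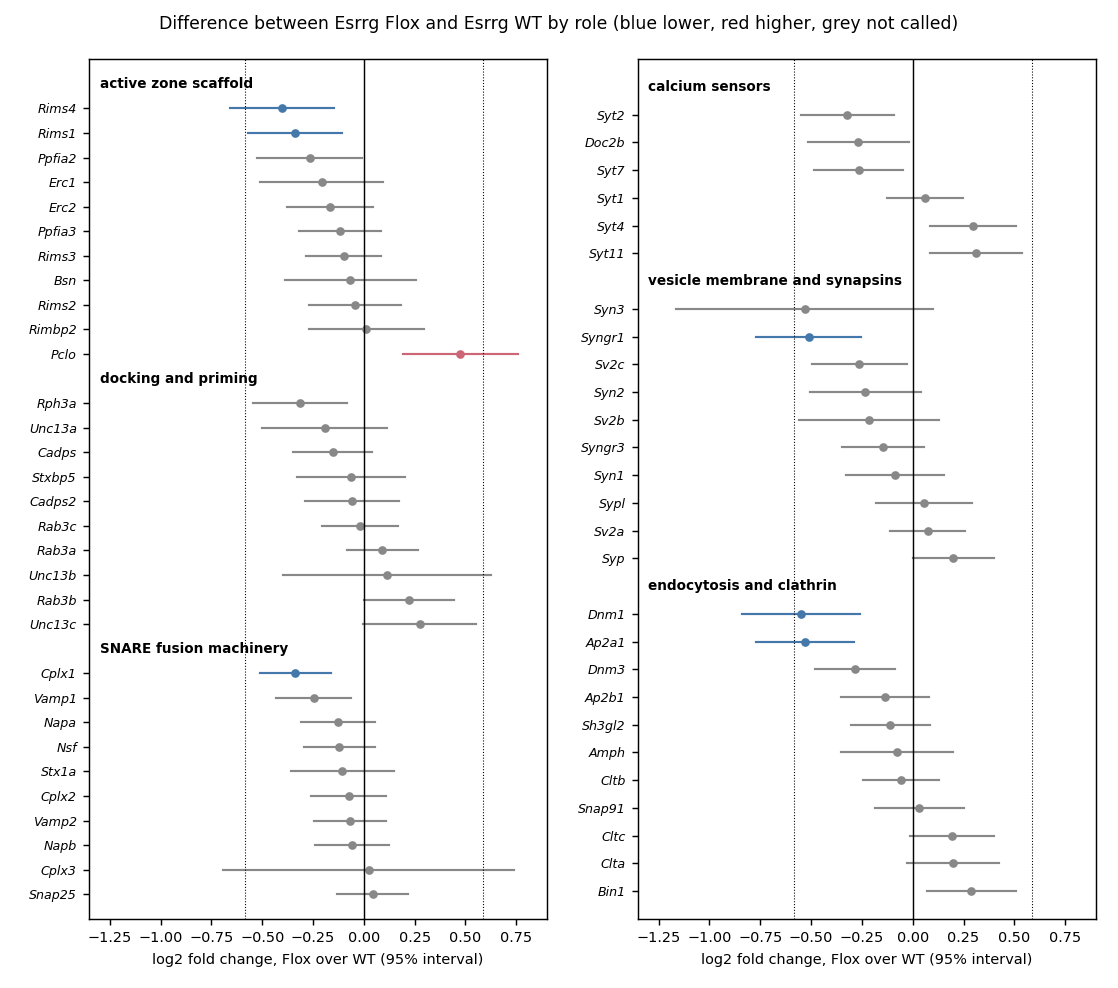
Log2 fold change of Flox over WT (x axis, DESeq2, with its 95% interval) for each of the 58 genes, grouped by role. Blue genes were called lower, red higher and grey not called, and dotted lines mark a 1.5-fold change. The called genes run from -0.55 for Dnm1 to 0.47 for Pclo, and all called points lie inside the dotted lines.

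The plot of libraries by gene shows how far single libraries carried these differences. Flox replicate 4 was below Flox replicate 2 for 35 of the 58 genes and above it for 23. In 23 genes (39.7%) both Flox libraries were below all 3 WT libraries, where 22.5% of all tested genes and 29.4% of those with a mean of at least 500 were, and in 9 (15.5%) both were above, where 19.9% and 20.9% were. As a share of all assigned counts the 58 genes held 2.73%, 2.67% and 2.62% in WT and 2.55% and 2.47% in Flox. Every Flox library was thus below every WT library, with a gap between the groups that was narrower than the range within WT. Scaling by assigned counts also moved the log2 fold changes of all tested genes, by a median of -0.034. The lower share is thus not wholly particular to the 58 genes.

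**Figure D2:**
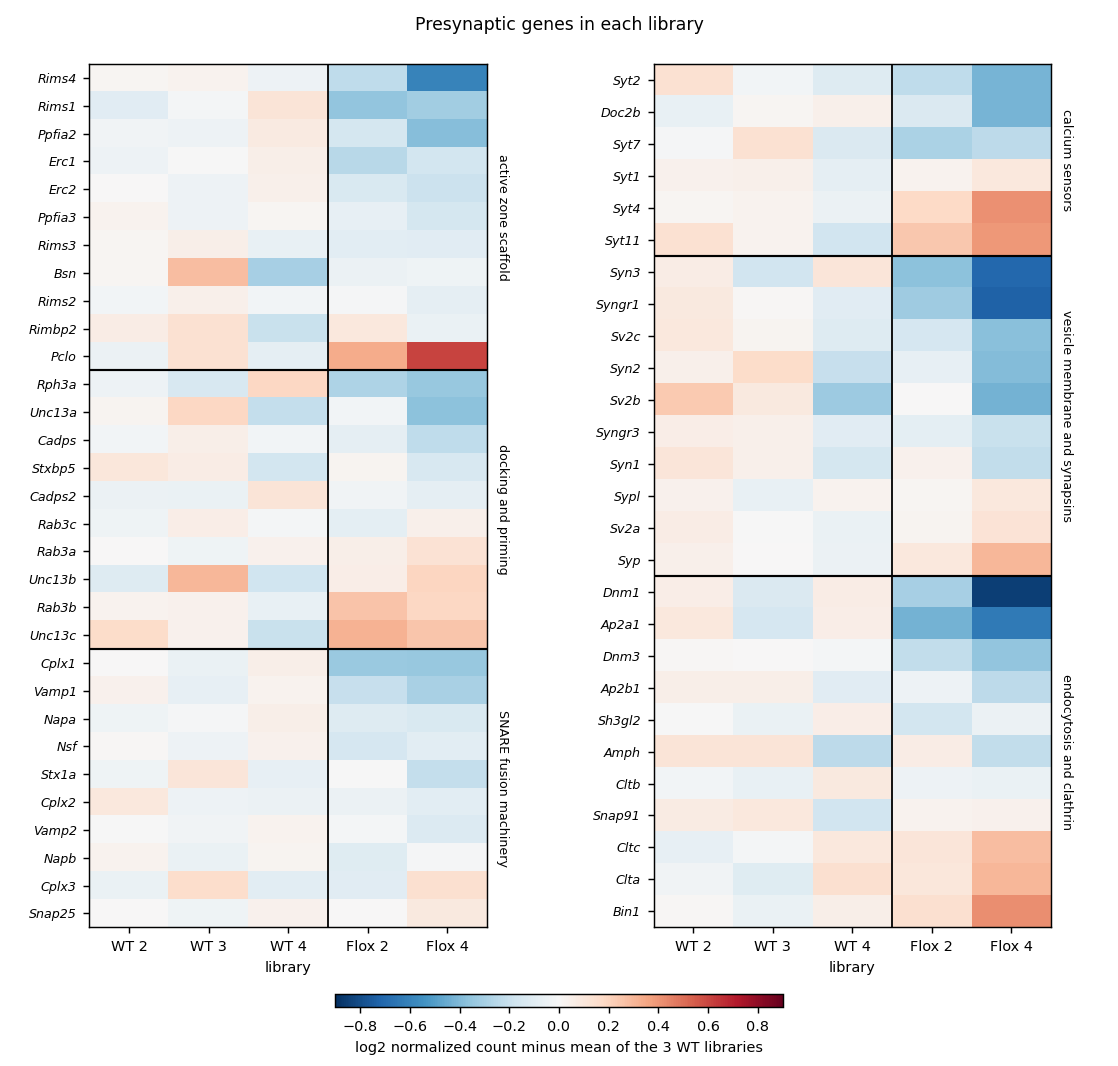
Heat map of the 58 genes (rows, by role) in the 5 libraries (columns). Colour gives the log2 normalized count of a library minus the mean of that value over the 3 WT libraries. The Flox replicate 4 column holds both the deepest blue cells, such as Dnm1, and the reddest, such as Pclo.

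ERRγ binds DNA at an element with the letters TCAAGGTCA, so the promoters of these genes were searched on both strands, from 250 bases before to 50 after the start site (RefSeq, GRCm38.p6). Of the 58 genes, 48 matched, with 59 windows. The element stood in 1 of these (1.69%), that of Syt2, and in 0.423% of all 32851 windows. A looser form that contains it, TNAAGGTCA, was found in the same window only and in 1.28% of all windows. The cAMP response element TGACGTCA stood in 5 windows (8.47%, those of Ap2b1, Cltb, Napa, Sh3gl2 and Syn1), against 1.79% of all. None of the called genes with a window held any of these letters in it. Rims2, Rims4, Snap25, Vamp2, Syt4, Syt7, Doc2b, Syn3, Syngr3 and Bin1 had no entry, so the called gene Rims4 was not searched. In all, 4 promoters are shown, each the 250 bases before the start site, 5′ to 3′ on the gene's strand, because 2 hold a motif (in capitals, the ERRγ element of Syt2 on the reverse strand) and the others belong to the called genes with the most counts.
Syt2 (chr1:134646362-134646611, plus strand): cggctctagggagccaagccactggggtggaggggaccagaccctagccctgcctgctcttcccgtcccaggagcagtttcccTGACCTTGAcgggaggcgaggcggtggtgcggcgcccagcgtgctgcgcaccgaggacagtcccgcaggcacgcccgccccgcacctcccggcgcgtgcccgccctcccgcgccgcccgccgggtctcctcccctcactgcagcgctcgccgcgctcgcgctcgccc
Syn1 (chrX:20920919-20921168, minus strand): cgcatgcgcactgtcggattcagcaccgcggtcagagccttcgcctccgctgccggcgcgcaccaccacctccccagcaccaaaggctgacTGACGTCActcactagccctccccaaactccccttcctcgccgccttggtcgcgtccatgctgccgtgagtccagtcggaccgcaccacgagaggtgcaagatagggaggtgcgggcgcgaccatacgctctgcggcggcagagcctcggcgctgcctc
Cplx1 (chr5:108550028-108550277, minus strand): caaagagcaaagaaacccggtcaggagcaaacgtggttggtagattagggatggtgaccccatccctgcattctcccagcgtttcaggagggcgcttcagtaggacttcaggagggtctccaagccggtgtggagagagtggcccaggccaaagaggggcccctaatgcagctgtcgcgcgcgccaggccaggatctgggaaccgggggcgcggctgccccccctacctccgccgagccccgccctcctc
Dnm1 (chr2:32353330-32353579, minus strand): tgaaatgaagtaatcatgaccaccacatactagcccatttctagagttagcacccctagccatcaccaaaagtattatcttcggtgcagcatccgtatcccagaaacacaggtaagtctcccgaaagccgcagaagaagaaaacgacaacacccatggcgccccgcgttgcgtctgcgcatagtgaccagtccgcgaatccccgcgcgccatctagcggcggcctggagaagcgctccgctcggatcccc
The Syt2 element ended 158 bases before the start site. A match is a description of the letters, and no binding was measured here.

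The active zone scaffold holds vesicles next to the calcium channels. Of its 11 genes, Rims4 and Rims1 fell and Pclo rose, and the median log2 fold change was -0.12. Rims3 and Rims4, short RIM family members that keep only the C-terminal domain of the full-length RIMs, were its most abundant genes per kilobase of exon in WT (903 ± 38.8 and 461 ± 12.7 normalized counts per kilobase, mean ± SD, n = 3). Rims4 (ENSMUSG00000035226.6) had 2314, 2332 and 2215 normalized counts in WT and 1956 and 1505 in Flox. Both Flox libraries were below WT, and Flox replicate 4 was far below Flox replicate 2. The log2 fold change was -0.40 (SE 0.13, DESeq2 adjusted p = 0.0333), and -0.23 without Flox replicate 4. Rims1 (ENSMUSG00000041670.20) encodes a full-length RIM, which tethers calcium channels and binds Rab3 on the vesicle. Its levels were 1553, 1649 and 1810.1 in WT and 1301 and 1343 in Flox, so the groups did not overlap and the Flox libraries lay close together. Its log2 fold change was -0.34 (SE 0.12, DESeq2 adjusted p = 0.0494), at the edge of the threshold. Rims3 itself was at 7293, 7445 and 6850.3 in WT and 6726 and 6705 in Flox, a log2 fold change of -0.10 (SE 0.094, DESeq2 adjusted p = 0.635), and Rims2, the other full-length RIM, was at -0.044.

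Pclo (ENSMUSG00000061601.16) encodes Piccolo, a giant scaffold that organizes actin and vesicles at the active zone. It had 641, 732 and 628 normalized counts in WT and 841 and 1013 in Flox. Both Flox libraries exceeded all WT libraries, and the Flox mean was 39.0% above the WT mean. The log2 fold change was 0.47 (SE 0.14, DESeq2 adjusted p = 0.0203), with 0.33 without Flox replicate 4 and 0.60 without Flox replicate 2. Bassoon (Bsn), the close relative of Piccolo, was at 1073, 1284 and 861 in WT and 1019 and 1028 in Flox, and these libraries overlapped (log2 fold change -0.067, 95% interval -0.39 to 0.25). Microglial marker counts rose in the same libraries as Pclo (sums given above), and their part in this result was not tested. The remaining scaffold genes, RIM-BP2 (Rimbp2), ELKS (Erc1 and Erc2) and liprin-α (Ppfia2 and Ppfia3), lay between -0.27 and 0.012 and none was called.

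Genes for docking and priming, the steps that bring a vesicle to the membrane and make it ready for fusion, were not called in either direction (0 of 10 by DESeq2, with 1 higher and 1 lower at an unadjusted p under 0.05, and 0 by edgeR, with 3 at that p). Rab3a, the main vesicle GTPase of this step, was the most abundant per kilobase (12654 ± 349). It had 28192, 27378 and 28932 normalized counts in WT and 29232 and 30791 in Flox, and both Flox libraries were slightly above WT without passing the test (0.091 on the log2 scale, SE 0.089, DESeq2 adjusted p = 0.649). Rph3a encodes rabphilin, which binds Rab3 and calcium. Its levels were 10675, 9986 and 12560.2 in WT and 9109 and 8684 in Flox, and both Flox libraries were below WT while WT itself spread widely. The log2 fold change of Rph3a was -0.32 (SE 0.12, DESeq2 adjusted p = 0.0746), so it did not pass the test. Munc13-1 (Unc13a) had 1176, 1318 and 998 normalized counts in WT and 1139 and 897 in Flox, with overlapping groups, and Munc13-3 (Unc13c) was at 923, 848 and 718 in WT and 1026 and 980.2 in Flox, with both Flox libraries above WT. Neither was called (log2 fold changes -0.19 and 0.27). CAPS (Cadps, Cadps2), tomosyn (Stxbp5), Rab3b and Rab3c lay between -0.15 and 0.22, and Unc13b was too low, at 102 to 142 normalized counts in WT, for its interval (-0.40 to 0.63) to be narrow.

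The SNARE proteins bring the membranes together, and of the 10 genes for them and their partners Cplx1 fell and none was called higher. Cplx1 (ENSMUSG00000033615.10) encodes complexin-1, which binds the assembled SNARE complex and both clamps and promotes fusion. It ranked 17 of 29210 genes per kilobase in WT (20315 ± 789). Cplx1 had 44481, 42738 and 46192 normalized counts in WT and 35324 and 35009 in Flox. The Flox libraries were nearly equal and lay under all WT libraries, and the mean fell by 20.9%. The log2 fold change was -0.34 (SE 0.089, DESeq2 adjusted p = 0.0052), and -0.34 and -0.35 when Flox replicate 4 or 2 was left out, so that its size did not turn on either Flox library. Cplx1 was not called without WT replicate 2 (DESeq2 adjusted p = 0.14) or by edgeR (adjusted p = 0.0581). Complexin-2 (Cplx2) was at 25013, 22764 and 22651 in WT and 22586 and 21992 in Flox, a log2 fold change of -0.075 (SE 0.095, DESeq2 adjusted p = 0.751). The GABAergic marker sum was also lower in both Flox libraries, with 1 of its 6 genes called lower and 1 higher, and the dopaminergic sum overlapped, with 1 of 11 called lower. The part of cell composition in the Cplx1 result was not tested.

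Snap25, the plasma membrane SNARE, was the most abundant of the 58 genes by count, with 85485, 83126 and 87908 normalized counts in WT and 85575 and 90663 in Flox. Its groups overlapped, and the 95% interval of its log2 fold change was narrow, at -0.13 to 0.22. Synaptobrevin-2 (Vamp2), the vesicle SNARE of most central synapses, was at 38109, 37367 and 38922 in WT and 37708 and 35066 in Flox and overlapped too (log2 fold change -0.068). Synaptobrevin-1 (Vamp1) was at 22542, 20891 and 22480.2 in WT and 19062 and 17961 in Flox, with both Flox libraries below WT, and its log2 fold change of -0.25 (SE 0.093, DESeq2 adjusted p = 0.0777) missed the threshold. Syntaxin-1A (Stx1a), NSF and the SNAPs (Napa, Napb), which recycle used SNAREs, lay between -0.13 and -0.059, and the scarce complexin-3 (Cplx3) was at 0.025 (95% interval -0.69 to 0.74).

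Of the 6 calcium sensors, 0 were called by DESeq2 (3 lower and 2 higher at an unadjusted p under 0.05) and 0 by edgeR (5 at that p). Synaptotagmin-11 (Syt11), a family member that does not bind calcium and was the most abundant sensor-family gene per kilobase (6684 ± 707), had 38092, 35456 and 30823 normalized counts in WT and 40985 and 45457 in Flox. Both Flox libraries were above WT, and the log2 fold change was 0.31 (SE 0.12, DESeq2 adjusted p = 0.0699). Syt4, which also binds calcium poorly and is known from dense-core vesicles and dendrites, was at 5249.8, 5301 and 5003 in WT and 5866 and 6878 in Flox, again with both Flox libraries higher (0.30 on the log2 scale, SE 0.11, DESeq2 adjusted p = 0.0611).

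Neither of these passed the test, nor did the other sensors. Syt1, the fast sensor of most forebrain synapses, was at 14942, 15054 and 13740 in WT and 14855 and 15569 in Flox (log2 fold change 0.061, 95% interval -0.12 to 0.25). Syt2, the fast sensor of many hindbrain and fast-spiking synapses, had 7119, 6351 and 5977 normalized counts in WT and 5530.4 and 4846 in Flox, a log2 fold change of -0.32 (SE 0.12, DESeq2 adjusted p = 0.0619). All Flox values of Syt2 were below WT, as they were for Syt7, a slow, high-affinity sensor, at 4288, 4744 and 3951 in WT and 3547 and 3657 in Flox (log2 fold change -0.26), and for Doc2b, a sensor tied to spontaneous release (-0.27). Microglia are also known to express Syt11, and their part in its values was not tested.

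Among 10 vesicle membrane proteins and synapsins, Syngr1 fell. Syngr1 (ENSMUSG00000022415.13) encodes synaptogyrin-1, a four-pass protein of the vesicle membrane related to synaptophysin. It had 17947, 17010.1 and 15764 normalized counts in WT and 13529 and 10178 in Flox. Both Flox libraries were below WT, and they differed from each other more than the WT libraries did. The log2 fold change was -0.51 (SE 0.13, DESeq2 adjusted p = 0.00388), with -0.33 without Flox replicate 4 and -0.73 without Flox replicate 2. Synaptophysin itself (Syp) was the most abundant of these 10 genes per kilobase (3828 ± 123). It was at 20545, 20026 and 19271 in WT and 21251 and 24542 in Flox, with both Flox libraries above WT (0.20 on the log2 scale, SE 0.1, DESeq2 adjusted p = 0.247). Sv2a, a transporter-like vesicle glycoprotein, had 18053, 17133 and 16475 normalized counts in WT and 17468 and 18759 in Flox and overlapped (log2 fold change 0.073), while its relatives Sv2b and Sv2c were at -0.21 and -0.26 and the synaptophysin-like Sypl at 0.056. Syngr3, a synaptogyrin that binds the dopamine transporter, was at 7074, 7027 and 6325 in WT and 6387 and 5904 in Flox with a log2 fold change of -0.15 (95% interval -0.35 to 0.054) and overlapping groups. The synapsins Syn1 and Syn2, which cluster vesicles into the reserve pool, were at -0.089 and -0.23. Syn3 was scarce, at 83.2, 70.3 and 85.5 in WT and 61.5 and 48.7 in Flox, and its log2 fold change of -0.53 (SE 0.32, DESeq2 adjusted p = 0.364) had the widest interval but one of all 58 (-1.16 to 0.10).

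Of the 11 endocytosis genes, Dnm1 and Ap2a1 fell, by more than any other called member, and none was called higher. Dnm1 (ENSMUSG00000026825.18) encodes dynamin-1, the neuronal GTPase that cuts the vesicle from the membrane. It had 27282, 23869 and 27447 normalized counts in WT and 21248 and 14566 in Flox. Both Flox libraries were below WT, and Flox replicate 4 was lower than Flox replicate 2 by more than Flox replicate 2 was below the lowest WT library. The log2 fold change was -0.55 (SE 0.15, DESeq2 adjusted p = 0.00693), but leaving out Flox replicate 4 gave -0.31 and leaving out Flox replicate 2 gave -0.85, so its size turned on 1 library. Its adjusted p by DESeq2 was 0.437 without Flox replicate 4, 0.0867 without WT replicate 2 and 0.266 without WT replicate 4, where the log2 fold change was -0.52. Dynamin-3 (Dnm3) was at 3543, 3533 and 3479.9 in WT and 3023 and 2751 in Flox, also lower in both Flox libraries, with a log2 fold change of -0.29 (SE 0.1, DESeq2 adjusted p = 0.0516) that just missed the threshold.

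Ap2a1 (ENSMUSG00000060279.15) encodes an α subunit of AP-2, which picks vesicle cargo and brings clathrin to the membrane. Its levels were 3127, 2641 and 3053 in WT and 2186 and 1885 in Flox. The groups did not overlap, and the mean fell by 30.8% (-0.53 on the log2 scale, SE 0.12, DESeq2 adjusted p = 0.00115). Ap2b1, the β subunit, was at -0.14 (95% interval -0.35 to 0.078). Clathrin light chain A (Clta), the most abundant gene of this role per kilobase (5325 ± 483), was at 9339, 8866 and 10552 in WT and 10251 and 11779 in Flox, and Flox replicate 2 lay within the WT range (log2 fold change 0.20). Clathrin heavy chain (Cltc) and Bin1, a membrane-bending protein that oligodendrocytes and microglia also express, were above WT in both Flox libraries, at 0.19 and 0.29 on the log2 scale, without passing the test. Amph, Sh3gl2, Snap91 and Cltb, which bend the membrane or help build the coat, lay between -0.11 and 0.032.

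**Figure D3:**
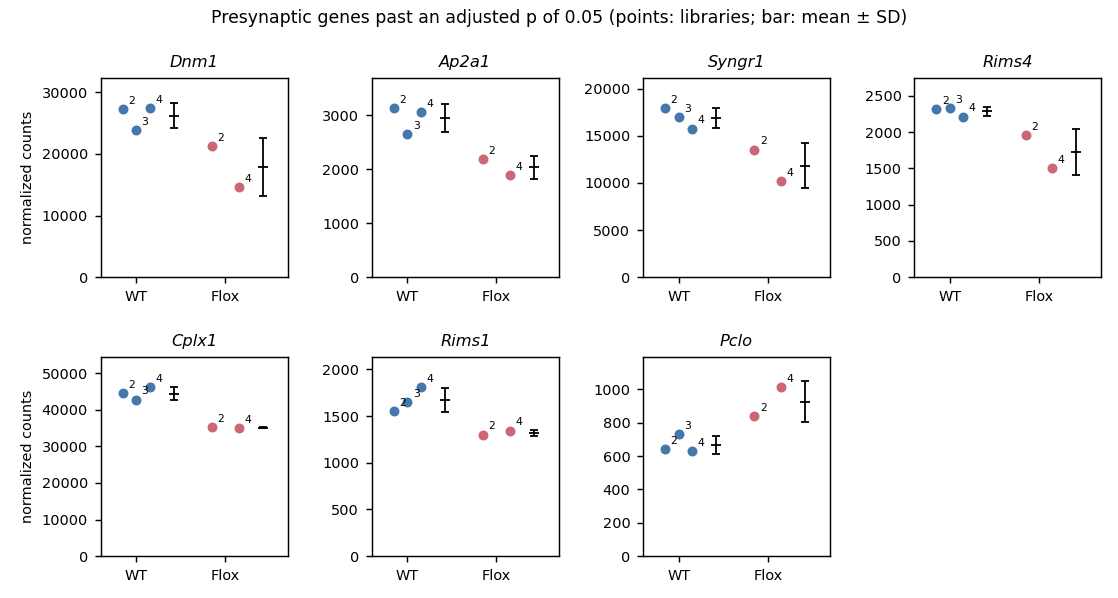
Normalized counts per library (y axis, linear from 0) for the 7 called genes, with the mean and SD of each group. In each panel the 2 Flox points lie outside the WT range, and the gap between Flox points is widest for Dnm1, Syngr1 and Rims4 and narrow for Cplx1 and Rims1.

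Among 76 other presynaptic genes with counts, 9 were lower (12.3% of 73 tested) and 2 higher (2.74%), beside 4.05% and 4.20% of all genes. The median log2 fold change was -0.11. Those lower included Doc2a, a calcium sensor of spontaneous release (-1.11), Pip5k1c, which makes the lipid that recruits AP-2 (-0.59), the synaptotagmin Syt12 (-0.53) and the endophilin relative Sh3glb2 (-0.42). Doc2a and Pip5k1c alone passed a fold change of 1.5. The counts that follow for fits without a library have no share of all genes in the same fit beside them. edgeR called 0 of these genes (23 at an unadjusted p under 0.05), and DESeq2 called 0 without Flox replicate 4 (5 lower and 2 higher at that p), 2 lower and 0 higher without WT replicate 2, 3 lower and 2 higher without WT replicate 3, 4 lower and 2 higher without WT replicate 4, and 7 lower and 2 higher without Flox replicate 2.

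The AP-2 adaptor is a complex of an α, a β, a μ and a σ subunit, with genes in both lists, and it was picked out here after the values were seen. Ap2m1, the μ subunit that reads cargo signals, had 12474, 11969 and 11145 normalized counts in WT and 9475 and 6493 in Flox, lower in both Flox libraries (-0.57 on the log2 scale, SE 0.15, DESeq2 adjusted p = 0.00422, with -0.33 without Flox replicate 4). Ap2s1, the small σ subunit, was at 7541, 7828 and 7610.3 in WT and 9546 and 10430.2 in Flox, higher in both (0.38 on the log2 scale, SE 0.094, DESeq2 adjusted p = 0.00253). Ap2s1 was no longer called with the length trend removed (DESeq2 adjusted p = 0.0607), without WT replicate 2 (0.109), without Flox replicate 4 (0.321) or by edgeR (adjusted p = 0.0519). Ap2m1 was no longer called without WT replicate 2 (DESeq2 adjusted p = 0.0693), without Flox replicate 4 (0.321) or by edgeR (adjusted p = 0.0699), and no test of a difference between subunits was run. Syt5, a calcium sensor found on dense-core vesicles, was the other gene that rose, at 3215, 3539 and 3076 in WT and 4292 and 4601 in Flox (0.44 on the log2 scale, SE 0.11, DESeq2 adjusted p = 0.00227).

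Shares of paralogues within a library do not depend on its scaling, and they were computed per kilobase of exon. Cplx1 made up 80%, 80.8% and 82.1% in WT and 77.8% and 78.1% in Flox of complexin transcripts, and the Cplx1 to Cplx2 ratio was 4.27 ± 0.3 in WT and 3.55 ± 0.044 in Flox (SD, n = 3 and 2). The groups did not overlap. Vamp1 held 17.7% ± 0.41 in WT and 16% ± 0.12 in Flox of synaptobrevin transcripts and was likewise lower in both Flox libraries. Among Munc13 genes, Unc13a held 48.1% ± 2.2 in WT and 40.1% ± 3.4 in Flox and Unc13c 49.2% ± 2.6 in WT and 57.1% ± 3 in Flox. Per kilobase, Unc13c held the larger share in 2 of 3 WT libraries and in both Flox libraries. By normalized counts not divided by length, Unc13a was instead above Unc13c in all WT libraries and in Flox replicate 2. The order of the pair thus depends on the length used. Among the RIMs the share of Rims4 was 27.1% ± 0.28 in WT and 23.6% ± 3.3 in Flox, below WT in both Flox libraries, and that of Rims3 was 53.2% ± 1.1 in WT and 57.2% ± 2.4 in Flox, above it.

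Among the 5 synaptotagmins, Syt2 held 7.79%, 7.27% and 7.7% in WT and 5.86% and 4.7% in Flox, and Syt7 4.79%, 5.54% and 5.19% in WT and 3.83% and 3.62% in Flox. Syt11 held 59.6% ± 1.5 in WT and 64.2% ± 0.73 in Flox, and a higher share of Syt11 lowers the shares of the others. The Syt1 to Syt2 ratio, which leaves Syt11 out, was 1.92, 2.17 and 2.11 in WT and 2.46 and 2.94 in Flox, higher in both Flox libraries. Clta held 67.3% ± 0.75 in WT and 71.1% ± 2.2 in Flox of clathrin light chains, again without overlap. By contrast the shares of Rab3a, Dnm1, Napa, Cadps and Erc2 overlapped between groups, with Rab3a at 87.2% ± 0.67 in WT and 87.7% ± 0.083 in Flox. Within the Rab3 family, Rab3b was slightly above WT in both Flox libraries and Rab3c below it (10.4% ± 0.56 in WT and 9.64% ± 0.26 in Flox). Both Flox libraries were also above WT in the share of Syn1 and below it in those of Syn2, Syn3 and Sv2c. No test was run on these shares.

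**Figure D4:**
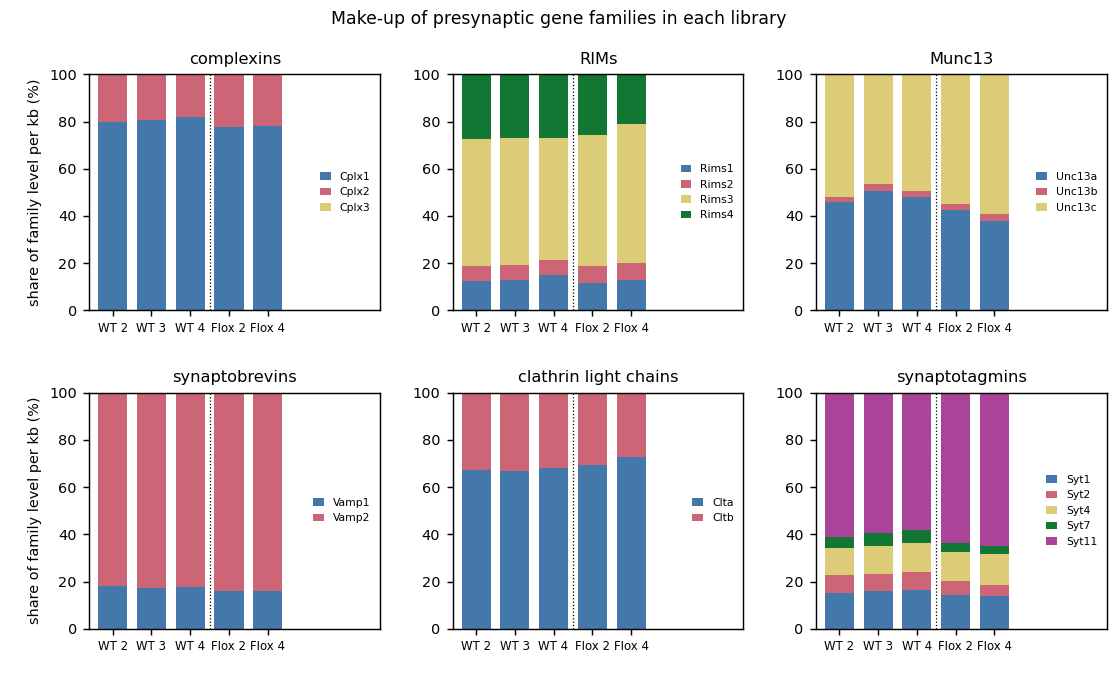
Share of each paralogue in its family's normalized counts per kilobase of exon (y axis, percent), as stacked bars for each of the 5 libraries. Cplx1 takes a smaller part of the complexin bar in both Flox libraries than in all WT libraries, and Syt11 a larger part of the synaptotagmin bar, while Cplx3 is too scarce to be seen.

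Across the 58 genes the log2 fold change was weakly and negatively related to the GC content of each gene's longest annotated transcript (Pearson's r = -0.32, Spearman's rho = -0.33, 58 genes that share 5 libraries and are not independent). The ratio of Flox replicate 4 to Flox replicate 2, libraries that also enter the fold change, had about the same relation (r = -0.31). Over 7068 tested genes with a mean of at least 500 normalized counts, the 2 relations had r = -0.12 and r = -0.17. With the log2 of exonic length, the log2 fold change had r = -0.28 over 7069 such genes and r = -0.03 over the 58. Of the 29 genes with the higher GC content 5 fell, and of the other 29 1 fell and 1 rose. These counts are small, and no share of all genes is given for the same GC ranges. The parts of GC content and length in the differences were not tested. DESeq2 called 6 lower and 1 higher with the GC trend over all genes removed, and 4 lower and 4 higher with the trend on total exon length removed. In the latter fit Rims4 and Rims1 no longer passed, and Syt4, Syt11 and Bin1 passed beside Pclo. No share of all genes called in these refits is given beside these counts.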

How the data were processed

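RNA was isolated by BAC-TRAP from pooled mouse midbrains in 5 libraries (3 Esrrg WT, 2 Esrrg Flox), poly(A)-selected and sequenced without strand. The deposited table holds raw read counts per gene, made by the authors with Trim Galore, STAR and HTSeq (submitters' notes: versions 0.6.6, 2.7.9a and 0.11.3). The notes name the genome GRCm39 and the methods GRCm38, so no coordinates of counted genes are given. Reads not assigned to 1 gene were 12.6% to 14.3% per library. Antisense and overlapping genes cannot be told apart without strand, and near-identical copies lose shared reads.

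Names and exon lengths came from GENCODE M21, matched by ID for 97.1% of 53700 rows and for all 58 members, and promoters from RefSeq. Counts of 29407 genes with at least 1 count entered DESeq2 1.42.0 (R 4.3.3), the study's tool, with default size factors, a two-sided Wald test, independent filtering at 0.05 and Benjamini-Hochberg adjustment over all genes. DESeq2 was therefore the main test and edgeR 4.0.16 (quasi-likelihood) an alternative. Other alternatives were TMM library sizes, assigned counts as size factors, a filter of 10 counts in 2 libraries, no independent filtering, a replicate block, removed trends on length or GC content (span 0.5), and leaving out each library. Length was that of all annotated exons of a gene joined, and GC content that of its longest annotated transcript. The code was tested on simulated data. Depth was 20635855 to 23105058 counts, at which 3 counts are 0.13 to 0.145 CPM, counting error only. No libraries were duplicates (chi-square per degree of freedom 4.54 to 50.3). Values are mean ± SD.

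The members, their roles and the other lists were chosen with earlier results of these data known, so no list was tested as a set. Values in each library are given for called members, the 2 most abundant per kilobase of each role, and the 5 largest uncalled differences with a mean of at least 50 normalized counts. Of other presynaptic genes, up to 5 called in each direction are named, some with their log2 fold change only. Values of further members were added after they were seen.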

Additional observations from a re-analysis of the deposited data

How the results depend on the processing

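The 7 called genes kept their direction under all 13 alternatives, but the number of calls depended on the test and on single libraries, and the cause was not tested. edgeR called 0 members and 0 other presynaptic genes in either direction (6 members higher and 15 lower at an unadjusted p under 0.05, and 4 and 19 of the others), and 147 genes higher and 89 lower in all. Assigned counts as size factors gave 10 members lower, the filter on low counts 2 higher, and no independent filtering 4 other presynaptic genes lower. With the length trend removed, 4 members were higher and 4 lower, 1 other presynaptic gene was higher and 5 were lower, and the members' median log2 fold change was -0.043. No count over all genes stands beside the calls of these DESeq2 refits. Leaving out 1 library gave 0 to 3 members higher and 0 to 6 lower, 0 to 2 of the other presynaptic genes higher and 0 to 7 lower, and 33 to 778 of all genes higher and 39 to 807 lower, with the fewest over all genes without Flox replicate 4. The lone Flox library of those fits was taken to vary as the WT libraries do. The members' median lay between -0.13 and -0.068 in these fits.

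WT and Flox share replicate numbers 2 and 4, but the labels do not say that a number marks a shared origin. Deviations of same-numbered libraries correlated at 0.154 and 0.127 in only 2 pairs. With 2 Flox libraries, their deviations from the Flox mean are equal and opposite, so these 2 values are not independent and cannot decide the question. With the replicate block, 0 members were higher and 4 lower (4 and 10 at an unadjusted p under 0.05), 4 other presynaptic genes were lower, and 221 genes were higher and 255 lower in all. At this depth a 1.5-fold difference was inside the 95% interval of 3 of the 51 uncalled genes (Unc13b, Cplx3 and Syn3, the least abundant).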
